A study of Mus musculus with 3 samples.

Results

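The Zfp genes of the mouse, a large set of genes named for zinc fingers, were examined in neural stem cells, or NSCs, whose RNA was labelled knockout (KO) of Dnmt3a or wild type (WT). Members were all genes that the array files name Zfp followed by digits alone, with the exception of Zfp42. They numbered 239, with 461 probes, among 27669 distinct genes and 41174 probes on the array. Of the 239 genes, 223 had a probe well above background in 1 channel on all 3 arrays and were tested, among 18066 genes tested in all. The remaining 16 (Zfp92, Zfp109, Zfp128, Zfp133, Zfp174, Zfp312, Zfp352, Zfp371, Zfp395, Zfp406, Zfp454, Zfp458, Zfp459, Zfp474, Zfp711 and Zfp712) did not reach that level and were not tested.

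Total RNA of NSCs of genotype Dnmt3a-/- and total RNA of wildtype NSCs were set against each other on 3 two-colour Agilent arrays, 1 for each biological replicate. Both kinds of NSC had been made from mouse embryonic stem cells, kept in N2B27 medium without serum for 7 days with EGF and bFGF at 10 ng/ml each, grown as neurospheres and then as attached cultures. Dnmt3a encodes a DNA methyltransferase that methylates unmethylated CpG sites. The sources used here do not give the knockout allele, the strain or the number of embryonic stem cell lines, so that a line effect cannot be told apart from genotype. The RNA labelled KO carried Cy3 and the RNA labelled WT carried Cy5 on every array, so that a dye bias of a probe cannot be told apart from genotype either.

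A classical zinc finger is a short loop of protein folded around a zinc ion by a pair of cysteines and a pair of histidines, and tandem fingers read successive stretches of DNA. Many Zfp genes encode such arrays behind a KRAB domain, which recruits Trim28 (KAP1) and through it the histone methyltransferase Setdb1, HP1 proteins and DNA methylation, chiefly at retroelements and imprinted loci. These KRAB genes have multiplied by local duplication and lie in clusters on several chromosomes, mouse chromosome 7 among them. The Zfp name is only a label of a zinc-binding motif, however, and it also covers RNA-binding, ubiquitin ligase and LIM domain proteins. In the RefSeq annotation, 33 of the 223 tested genes now carry another symbol, among them Zfp238 (Zbtb18), Zfp206 (Zscan10), Zfp385 (Zfp385a), Zfp259 (Zpr1) and Zfp179 (Rnf112).

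The relatedness of the family was visible in the array's probes. The linker that joins successive fingers (threonine, glycine, glutamate, lysine, proline) is conserved, and its codon pattern, with the last base of each codon free, was searched on both strands. It stood in 11 of the 461 Zfp probes (2.39%), against 35 of all 41174 probes (0.085%). The probes of 60 bases below are shown because they carry this linker, printed in capitals, and belong to genes named further on.
Zfp51: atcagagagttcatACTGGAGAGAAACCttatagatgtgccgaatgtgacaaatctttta
Zfp53: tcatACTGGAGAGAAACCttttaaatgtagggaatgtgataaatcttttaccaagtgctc
Zfp52: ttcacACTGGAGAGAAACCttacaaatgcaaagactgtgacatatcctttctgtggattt
Zfp146: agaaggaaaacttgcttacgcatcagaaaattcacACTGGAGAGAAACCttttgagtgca
Zfp74: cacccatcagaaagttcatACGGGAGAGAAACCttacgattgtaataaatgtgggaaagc
Zfp248: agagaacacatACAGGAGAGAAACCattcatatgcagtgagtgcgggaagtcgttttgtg
Zfp72: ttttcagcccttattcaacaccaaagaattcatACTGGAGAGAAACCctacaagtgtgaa
On mouse build mm7 the probes of Zfp51, Zfp53 and Zfp52 lay next to each other on the plus strand, at chr17:19644483-19644542, chr17:19688083-19688142 and chr17:19743052-19743111. Those of Zfp146 and Zfp74 were on the minus strand at chr7:27105534-27105593 and chr7:26877456-26877515, that of Zfp248 on the minus strand at chr6:118454592-118454651 and that of Zfp72 on the minus strand at chr13:71304043-71304102. All of them have an open reading frame across the probe. Among the 44 pairs of such open-frame probes of different genes, the longest identical run had 8 to 21 bases, with a median of 12 and the maximum between Zfp146 and Zfp52. These probes were picked for the linker they share, so such a run is in part set by that choice. Probes without the linker were not compared. The linker probe stood for its gene in the tests only for 5 genes, of which Zfp248 and Zfp72 were called lower and none higher.

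Quality of the arrays bears on all values below. The log2 ratios of the arrays, each of labelled KO over labelled WT, correlated pairwise at r = 0.906 to 0.928 across genes, which are not independent replicates. All 8 NSC markers examined, such as Nes and Sox2, were well above background in both channels, with 2 higher and 6 lower in labelled KO. Sox9 had the largest ratio of these, at -1.19 (limma adjusted p = 3.8e-07), beside -0.36 for Sox2 and -0.11 for Nes. The higher ones were Pax6 (0.24) and Prom1 (0.14). Of 7 embryonic stem cell markers 5 were tested, and 2 of them were higher and 0 lower in labelled KO: Klf4 by 0.59 on the log2 scale and Dppa5a by 0.17. With median centring neither passed, with Klf4 at 0.18 (limma adjusted p = 0.11) and Dppa5a at -0.04 (adjusted p = 0.71). Esrrb (0.04), Utf1 (0.06) and Tdgf1 (-0.08) did not pass, and Pou5f1 and Nanog were not above background on enough arrays to be tested. All 7 fibroblast markers were likewise well above background in both channels, and 6 were lower and 0 higher in labelled KO (median log2 ratio -0.36). Col1a2 (-1.48) and Col1a1 (-0.97) had the lowest ratios, and Col3a1 (0.02) did not pass. Their log2 intensities ran from 9.36 to 15.6 in labelled KO, against 6.62 to 15.0 for the NSC markers. Of 5 tested neuron markers 0 were higher and 2 lower, and of 3 astrocyte markers 0 and 1 (Aldh1l1, -1.01). Of 3 oligodendrocyte markers 0 were higher and 1 lower, and the 1 tested blood marker was higher. Over all tested genes, 22.4% were called higher and 25.4% lower by the same threshold. The part of these marker lists in the Zfp values was not tested. Dnmt3a itself went against its label: its 3 tested probes had mean log2 ratios of 0.99, 0.76 and 0.61, higher in the RNA labelled KO on every array. Every direction given here therefore follows the channel labels and would turn if those were exchanged. The arrays lay on 1 slide, and p-values measure only the spread between the 3 replicates.

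Most Zfp genes differed little between the RNAs. Of the 223 tested, 37 (16.6%) were higher and 63 (28.3%) lower in RNA labelled KO at a limma adjusted p under 0.05, and 123 did not pass. Over all tested genes, 22.4% were called higher and 25.4% lower, so that 63.0% of the called Zfp genes were lower, against 53.1% of all called genes. The median log2 ratio was -0.04 over the Zfp genes and -0.01 over all genes. These shares are descriptions, and the difference between the family and the rest was not tested. When each array was centred on its median in place of loess, the median lay at -0.36 for the Zfp genes and at -0.26 for all genes, and the split became 6 higher and 152 lower, against 762 higher and 9567 lower over all genes. The Zfp median was thus below that of all genes with both scalings, by 0.03 with loess and 0.09 with median centring on the log2 scale.

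The ratios of the family were also narrow. Only 1 member, Zfp185, passed the threshold with a difference of at least 1.5-fold (0.448%), against 722, or 4.05%, of the 17843 other genes tested. That count depended on the scaling and background model: 23 members reached it with median centring (15.0% of all genes), 5 with the scanner's processed signals (8.87%), 5 in the authors' deposited table (9.02%), 3 with an offset of 10 (5.91%) and 0 with the background model fitted on all spots (1.67%). At 1.2-fold or more, 4 Zfp genes were higher (1.79%, background 8.47%) and 13 lower (5.83%, background 8.27%). The other 83 called members differed by less than 1.2-fold. Array by array, 145, 129 and 135 of the 223 Zfp genes had a ratio below 0 on arrays 1, 2 and 3, which is 65.0%, 57.8% and 60.5%, whereas 54.3%, 51.2% and 52.4% of all genes did. On all 3 arrays together 104 Zfp genes lay below 0 (46.6%) and 56 above 0 (25.1%), and of all genes 36.9% lay below 0 and 32.1% above. The family thus had a smaller share of genes above 0 on all arrays, and a larger share below 0, than the array as a whole.

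**Figure D1:**
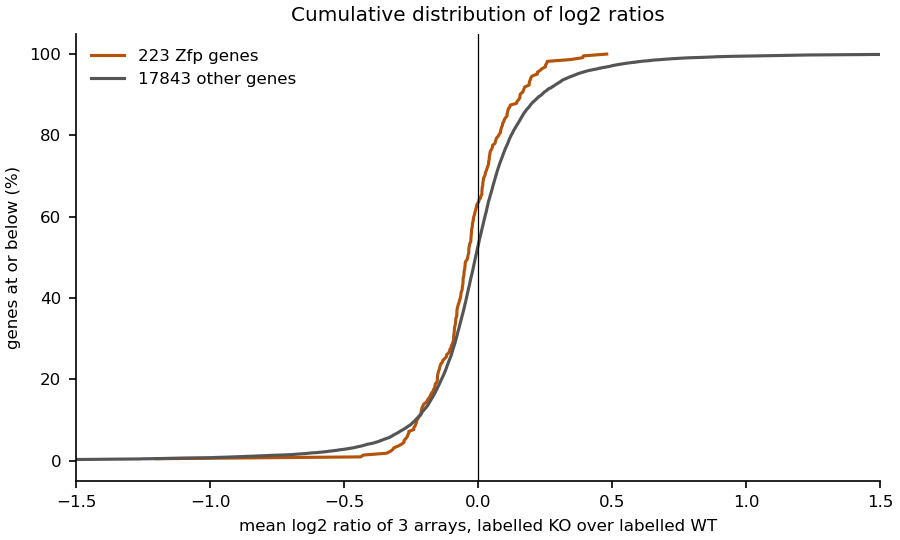
Cumulative share of genes (%) at or below each mean log2 ratio of 3 arrays, labelled KO over labelled WT, for the 223 Zfp genes and the 17843 other tested genes; the axis ends at 1.5 on both sides. The Zfp curve is the steeper one and lies above the other curve on the positive side, with a median of -0.04 against -0.01 over all genes.

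Calls were also counted by brightness, which sets the precision of a spot. When all tested genes were split into 3 equal parts by mean intensity, 115 Zfp genes fell into the middle part, 66 into the brightest and 42 into the dimmest. In the middle part 18 were higher (15.7%) and 41 lower (35.7%), against 24.8% and 29.4% of all genes there. In the brightest part 13 were higher (19.7%) and 14 lower (21.2%), against 1759 (29.21%) and 1805 (29.97%) of all 6022 genes there. Among the dim genes 6 of 42 Zfp genes were higher (14.29%) and 8 lower (19.05%), against 800 (13.28%) and 1010 (16.77%) of all 6022 genes there. Zfp genes were thus called lower more often than all genes in the middle part, but less often in the brightest part. In the dimmest part both shares were slightly above those of all genes. The median absolute log2 ratio in the brightest part was 0.083 for Zfp genes and 0.13 for all genes, so bright Zfp genes had small ratios too.

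**Figure D2:**
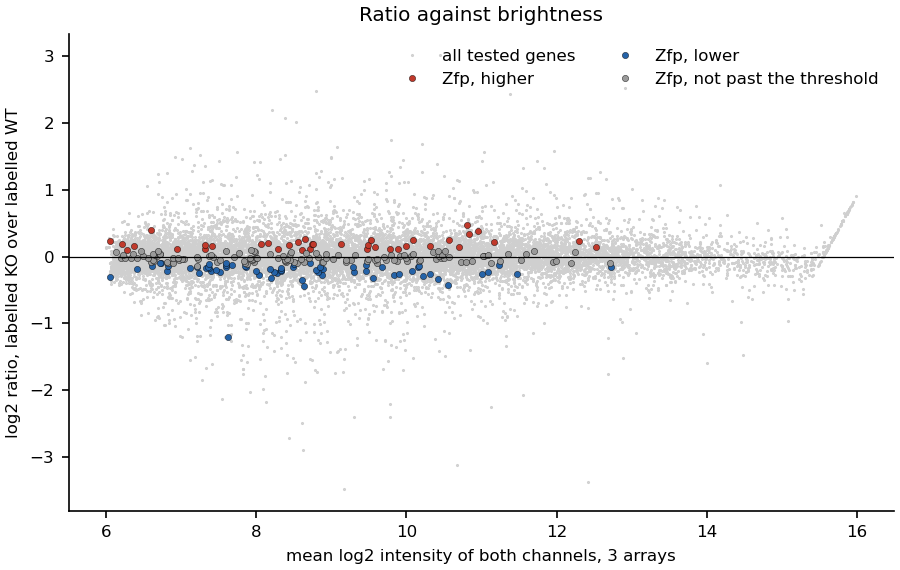
Mean log2 ratio, labelled KO to labelled WT against the mean log2 intensity of both channels on 3 arrays, for all tested genes (grey dots) and Zfp genes (circles coloured by call). The called Zfp genes stay close to 0 at every brightness, and Zfp185, at -1.20, stands alone.

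Zfp185 encodes a LIM domain protein bound to the actin cytoskeleton, not a DNA-binding finger protein, and it had the largest ratio of the family. Its normalized log2 intensity was 6.89, 7.01 and 7.19 in labelled KO on arrays 1, 2 and 3, against 8.23, 8.32 and 8.13 in labelled WT. The channels did not overlap, and the array ratios were -1.34, -1.32 and -0.95. The mean ratio of -1.20 ± 0.22 (SD, n = 3) made it 2.30-fold lower in labelled KO (limma adjusted p = 1.2e-05). It passed the threshold in all 12 alternative settings, but its size depended on the background model: the log2 ratio was -0.34 (adjusted p = 0.040) with the background model fitted on all spots and -1.83 from the scanner's processed signals. The remaining 222 members lay between -0.44 and 0.48.

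The decreases that followed were smaller. Zfp1, on chromosome 8, had ratios of -0.47, -0.42 and -0.42 on the 3 arrays, close to one another, and was 1.36-fold lower (adjusted p = 2.8e-05 by limma). Zfp367 had ratios of -0.56, -0.42 and -0.31 and was 1.35-fold lower (limma adjusted p = 3.0e-04). A second probe of Zfp367 fell by 0.26 on the log2 scale, and the dimmest, at -0.08, did not pass. Zfp69 had ratios of -0.36, -0.41 and -0.25, with a mean of -0.34.

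Zfp532, whose human counterpart joins a chromatin reader complex with ZNF592 and ZNF687, had a mean of -0.32, while its other, dimmer probe was at 0.03. Zfp9 likewise fell by 0.31 with its brightest probe and stood at -0.02 with another. Zfp286 was alike on both of its probes, at -0.29 and -0.30. These overlap (chr11:62861188-62861247 and chr11:62861183-62861242 on mm7), so they are not separate evidence. Zfp105 stood at -0.28. Zfp709 was well above background in labelled WT on all arrays and in labelled KO on none, and it entered the tests through the labelled WT channel alone. With the background model used here it was at least 1.23-fold lower in labelled KO, a bound equal to its measured ratio (-0.30). Its ratio was -0.03 with the background model fitted on all spots (limma adjusted p = 0.12) and -0.11 with median centring (adjusted p = 0.27), neither of which passed, and -2.67 from the scanner's processed signals.

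The largest increase was that of Zfp385 (Zfp385a, also Hzf), a p53 target whose product steers p53 toward cell cycle arrest genes. Its ratios were 0.47, 0.50 and 0.46, and it was 1.39-fold higher in labelled KO (limma adjusted p = 1.7e-05). The increase rested on its brightest probe: the other probes, at 0.07 and 0.09, did not pass, and with median centring the ratio was 0.03 (adjusted p = 0.81). Zfp365 (DBZ), a centrosomal protein that binds Disc1 in neurons, had ratios of 0.32, 0.40 and 0.45 and was 1.31-fold higher (limma adjusted p = 9.8e-05). Its ratio was 0.06 with the background model fitted on all spots and 0.94 in the authors' deposited table, and it passed in both.

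Zfp704 rose by 0.39 on its brightest probe and by 0.16 on the other one. Zfp219, a cofactor of Sox9 in cartilage, rose by 0.34 and, on its second probe, by 0.26. Zfp688 rose by 0.25 and 0.34 on its probes. Zfp7 (0.26), Zfp579 (0.26), Zfp281 (0.25) and Zfp637 (0.23) completed the list together with Zfp750, an epidermal differentiation factor. Zfp750 was well above background in labelled KO but on no array in labelled WT, entered the tests through the labelled KO channel alone, and was at least 1.18-fold higher with the background model used here. Its ratio was 0.02 with the background model fitted on all spots (limma adjusted p = 0.13, not past the threshold) and 2.14 in the authors' deposited table. Of these 10 increases, 7 had a ratio below 0 with median centring, where only those of Zfp385, Zfp365 and Zfp750 stayed above 0. That setting put the median of all genes at -0.26, and of the 7 only Zfp637 (-0.28) lay below it. All 10 of the largest decreases kept their direction in each setting that measured them. Since median centring moved most ratios down, this does not show that the decreases are firmer than the increases.

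**Figure D3:**
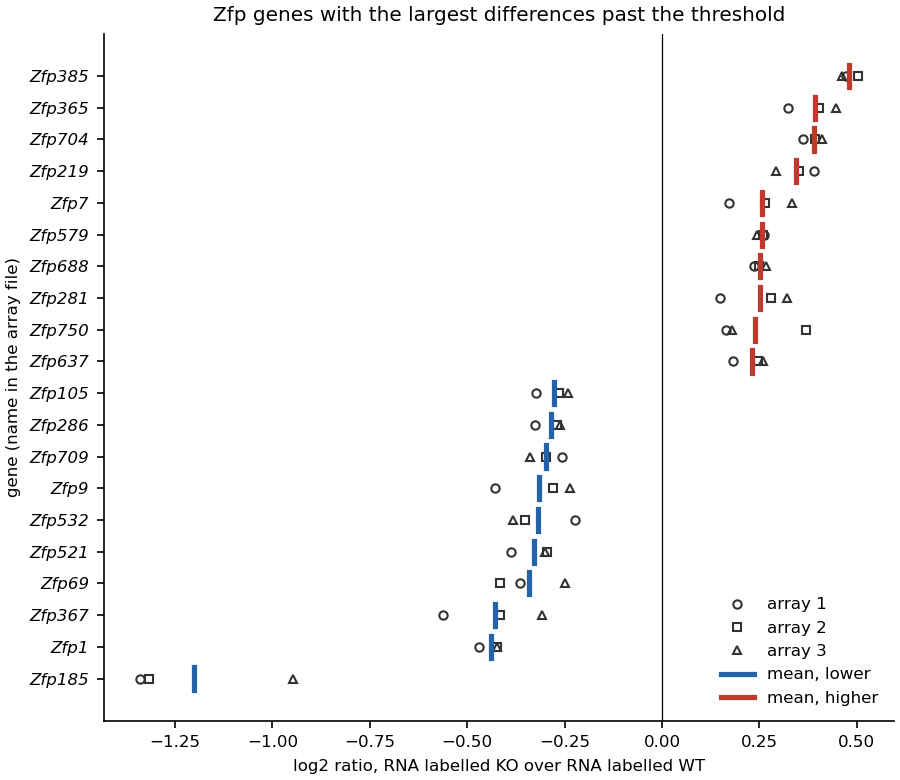
Log2 ratio, labelled KO to labelled WT, on each of the 3 arrays (symbols) and its mean (bars) for the 10 Zfp genes with the largest increase and the 10 with the largest decrease past the threshold. Zfp185 lies at -1.20 and the others between -0.44 and 0.48. With median centring, where the median of all genes was -0.26, 7 of the 10 increases had a ratio below 0.

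Different probes of a gene did not always go together. Of 105 Zfp genes with more than 1 tested probe, 42 were called by their brightest one. For 21 of the 42 another probe was called in the same direction, and for 6 another was called in the opposite direction. Zfp106, an RNA-binding protein of motor neurons, was at 0.11 on its brightest probe and at -0.26 on another. Zfp335 was at 0.10 and -0.16, and Zfp451, a SUMO ligase, at -0.16 and 0.11, with a further probe called lower at -0.13. Zfp644 was at 0.16 on its brightest probe and at -0.26 and -0.24 on others, and Zfp330 at -0.16 and 0.11. Zfp119 was at -0.17 and 0.26. Of the 63 genes with several probes that were not called by their brightest one, 23 had another probe past the threshold, which was higher for 10 genes and lower for 13. The matching counts over all genes with several probes were not made, so these counts cannot be read as a trait of the family. No transcript variant was assigned to these probes here.

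Genes were next grouped by role, and each count below stands beside 22.4% higher and 25.4% lower over all genes with loess and 4.22% and 53.0% with median centring. The first list holds genes that silence retroelements and imprinted regions. Its genes Zfp809, Zfp932 and Zfp708 are not members by the rule, since the array files give their probes other names, and they were named through their accessions in RefSeq. Zfp57, which with Zfp445 keeps methylation at imprints, had ratios of 0.10, 0.18 and 0.06 and was higher (0.11, limma adjusted p = 0.038). Zfp445 did not pass on its brightest probe (-0.02), while a dimmer one stood at -0.10 (adjusted p = 0.035). Zfp809, the silencer of murine leukaemia virus (0.05), Zfp932 (-0.08) and Zfp708 (-0.06), both binders of endogenous retroviruses, did not pass. The count was 1 higher and 0 lower of 5 tested, with a median of -0.02, against 0 higher and 3 lower with median centring, where Zfp57 stood at 0.007 (adjusted p = 0.94). Zfp57 was also not called with the background model fitted on all spots or with the scanner's processed signals. Nor was it called with no replicate block, or when replicate 1, 2 or 3 was left out.

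Among 10 tested genes of neural differentiation, 4 were higher and 2 lower, with a median of 0.02, against 1 higher and 7 lower with median centring. Zfp521, which drives embryonic stem cells into the neural lineage, had ratios of -0.39, -0.30 and -0.30 and was 1.26-fold lower in labelled KO (limma adjusted p = 1.9e-04). Zfp503 (Nolz1), a factor of striatal development, had ratios of -0.28, -0.19 and -0.32 (mean -0.26). All 3 arrays were below 0 for both genes.

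Zfp423, a paralogue of Zfp521, had ratios of 0.35, 0.13 and 0.18, with a mean of 0.22 (limma adjusted p = 0.0063), and its second probe rose by 0.17. It thus had the opposite direction to Zfp521 with loess, but a ratio of -0.11 with median centring. Zfp238 (Zbtb18 or RP58), a repressor needed for cortical neurons, was higher by 0.14, and Zfp335, a microcephaly gene, by 0.10 on its brightest probe. Zfp191 (Zfp24), needed for myelination, Zfp536, Zfp462 and Zfp292 did not pass, and Zfp292 spread between -0.38 on array 1 and 0.05 on array 3. Zfp365, described above, was the other higher gene.

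In the circuitry of embryonic stem cells, 2 of 6 tested genes were higher and 1 was lower, with a median of 0.01, against 1 higher and 4 lower with median centring. Zfp281, a GC-box binding factor that restrains Nanog, had ratios of 0.15, 0.28 and 0.32. Zfp296 had 0.27, 0.19 and 0.03, so that array 3 was close to 0 and its mean 0.16. Zfp217, a partner of the CoREST complex, was lower at -0.16, -0.16 and -0.13. Zfp206 (-0.08), Zfp143 (-0.03) and Zfp148 (0.05) did not pass. The 3 other probes of Zfp148 were higher, at 0.19, 0.27 and 0.14 (limma adjusted p = 0.012, 0.0016 and 0.011), and with the median of a gene's probes the list had 3 higher and 1 lower.

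Members with RNA-binding or other non-classical functions had 1 higher and 4 lower of 9 tested, with a median of -0.09, against 0 higher and 9 lower with median centring. Zfp326, a subunit of the DBIRD complex that links RNA polymerase II to splicing, had ratios of -0.29, -0.21 and -0.30 and was lower by a mean of -0.27 (limma adjusted p = 5.9e-04). Zfp622, a factor of large ribosomal subunit maturation, stood at -0.15, -0.25 and -0.23 (mean -0.21). Zfp36 (tristetraprolin), which destabilises AU-rich mRNAs, was lower by a mean log2 ratio of -0.11.

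Zfp185 was the other lower gene and Zfp106 the higher one. Zfp207 (BuGZ), a spindle protein, stood at -0.09 and Zfp259 (Zpr1) at -0.09, both short of the threshold. Zfp598, a ubiquitin ligase of collided ribosomes (0.01), and Zfp346 (-0.003) were near 0.

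Zfp110 (NRIF) and Zfp369 (NRIF2), which carry signals of the p75 neurotrophin receptor to the nucleus, were both lower by their brightest probes. Zfp110 had ratios of -0.20, -0.28 and -0.21 and Zfp369 of -0.11, -0.25 and -0.27. Their means were -0.23 (limma adjusted p = 9.7e-04) and -0.21 (adjusted p = 0.0038). The other probes of Zfp369, at -0.06 (adjusted p = 0.30) and 0.09 (adjusted p = 0.068), did not pass. With the median of a gene's probes, the background model fitted on all spots, the scanner's processed signals or the authors' deposited table, 1 of the 2 genes was lower.

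The co-repressors through which KRAB zinc finger proteins act were set beside the family. Of 17 such genes, 3 were higher and 9 lower in labelled KO, with a median of -0.14, against 0 higher and 15 lower with median centring and the shares over all genes given above. Trim28, the common adaptor, had ratios of 0.12, 0.01 and 0.05 and did not pass (limma adjusted p = 0.20). Setdb1 had 0.06, -0.22 and -0.25 (adjusted p = 0.094), so that its arrays did not share a sign. The lower genes were Uhrf1 (-0.39), Smarcad1 (-0.34), Atf7ip (-0.26), Daxx (-0.25), Cbx1 (-0.24), Dnmt1 (-0.21), Morc3 (-0.20), Dnmt3b (-0.14) and Cbx3 (-0.14), and the higher ones Hdac1 (0.27), Atrx (0.20) and Chd3 (0.16). Neither Cbx5, Chd4 nor Hdac2 passed. With median centring the ratios of Hdac1 (-0.27), Chd3 (-0.38), Atrx (-0.03) and Trim28 (-0.42) were below 0.

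By current name, 31 of the 196 genes still called Zfp were higher and 58 lower (15.8% and 29.6%). Of the 11 renamed to Zscan or Zkscan, 1 was higher and 2 lower, and of the 5 renamed to Zbtb, 2 were higher and 2 lower. Among the 11 with other new names, 3 were higher and 1 was lower. Chosen after their values were seen, these are Zfp469 (Tnrc18, 0.11), Zfp291 (Scaper, 0.12) and Zfp336 (Gzf1, 0.17), and Zfp179 (Rnf112, -0.10), a neural ubiquitin ligase. These classes hold too few genes for their shares to be set against that of the family.

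Position in the genome was examined because the family lies in tandem clusters. Probes of 236 members had a position, and 79 of them fell into 13 clusters with at least 4 tested genes and gaps of at most 1000000 bases. In the clusters 13 of 76 tested genes were higher (17.1%) and 25 lower (32.9%). Outside them 24 of 147 were higher (16.3%) and 38 lower (25.9%). Chromosome 7 held 56 tested members, 10 higher and 18 lower, and 1322 other tested genes, 308 higher and 311 lower.

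Neighbours within a cluster differed in direction. The cluster on chromosome 6 (probe centres at chr6:117871337-118490515 on mm7) had Zfp637 higher by 0.23, with ratios of 0.18, 0.25 and 0.26 on the 3 arrays. Its 3 other genes were lower: Zfp239 (-0.18), Zfp248 (-0.17) and Zfp9 (-0.31). On chromosome 15 (chr15:75707678-76992546) Zfp41 (-0.28) and Zfp623 (-0.16) at one end were lower and Zfp251 (0.22) and Zfp7 (0.26) toward the other end higher. Zfp707 (0.03) and Zfp647 (0.03) did not pass. With median centring the genes that are higher here had ratios below 0.

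The cluster that starts with Zfp84 (chr7:26720485-27105563) held the longest row of lower genes. Zfp383, Zfp74, Zfp14, Zfp82 and Zfp566 follow one another and were all lower, with means of -0.19, -0.23, -0.09, -0.22 and -0.12. Of these genes only Zfp383 kept its call in every alternative setting, and Zfp14 was near the threshold (limma adjusted p = 0.042). The row was singled out among the 13 clusters after the values were seen. Zfp82, for example, had ratios of -0.28, -0.23 and -0.15 (limma adjusted p = 0.0021), and Zfp74 had -0.30, -0.20 and -0.20 (adjusted p = 0.0014). A second probe of Zfp74, the linker probe printed above, fell by 0.13. Of the 5 other genes of this cluster, Zfp30 was higher with loess (0.17) and at -0.15 with median centring, and Zfp84 (-0.04), Zfp27 (-0.06), Zfp260 (-0.09) and Zfp146 (-0.13) did not pass. The median of the 10 genes was -0.11, and of 4 other tested genes between them 0 were higher and 1 was lower.

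In the largest cluster (chr7:20893900-22015633, 12 tested), 2 genes were higher and 5 lower. Zfp235 (-0.27), Zfp61 (-0.26), Zfp114 (-0.19), Zfp180 (-0.15) and Zfp108 (-0.15) were lower, interspersed with Zfp111 (0.11), which was higher with loess and below 0 with median centring, and with genes that did not pass. The median of the Zfp genes was -0.07, while 18 other tested genes in the same stretch, 7 higher and 2 lower, had a median of 0.08. Of the 5 tested genes of the chromosome 17 cluster that holds Zfp51, Zfp53 and Zfp52 (probes above), 0 passed by their brightest probes, whose ratios ran from -0.08 to 0.08. The second probe of Zfp52 was higher, at 0.13, 0.20 and 0.27 on the 3 arrays (limma adjusted p = 0.0035). The 4 tested genes of the chromosome 11 cluster also gave 0 calls by their brightest probes. A second probe of Zfp672 in that cluster was lower, at -0.17, -0.19 and -0.11 (limma adjusted p = 0.0069), beside 0.04 on the brightest.

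**Figure D4:**
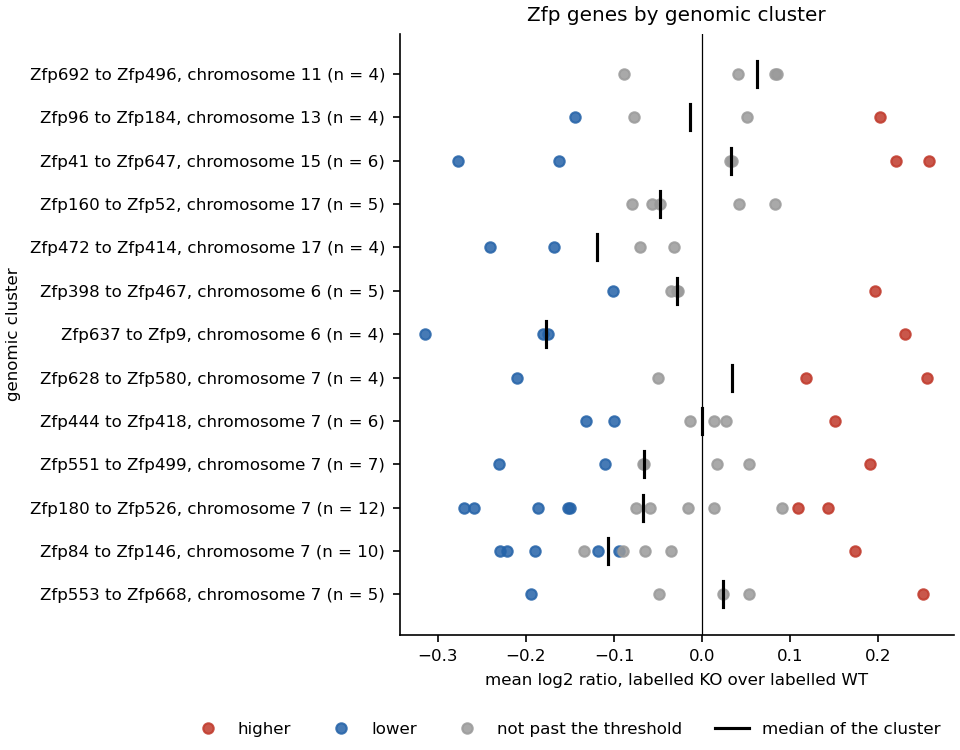
Mean log2 ratio, labelled KO to labelled WT, (3 arrays) of each tested Zfp gene in the 13 genomic clusters, 1 row a cluster, coloured by call; black bars are cluster medians. Most rows hold genes on both sides of 0, and the clusters from Zfp160 to Zfp52 and from Zfp692 to Zfp496 hold no gene called by its brightest probe; with median centring the higher genes of the chromosome 6 and chromosome 15 clusters had ratios below 0.

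Because Dnmt3a acts on CpG sites, the promoters of the members were read from RefSeq windows of 300 bases (250 before to 50 after the start, GRCm38.p6). Where a gene had several windows, the one with the most CG was used. A window was matched for 178 of the tested Zfp genes and for 11695 of all tested genes, with a median of 19 CG dinucleotides in the Zfp windows and 21 in all. The windows printed here, with each CG in capitals and in the direction of the gene, are that of Zfp185 for its large ratio and those of the 3 genes with the lowest ratios in the row on chromosome 7.
Zfp185: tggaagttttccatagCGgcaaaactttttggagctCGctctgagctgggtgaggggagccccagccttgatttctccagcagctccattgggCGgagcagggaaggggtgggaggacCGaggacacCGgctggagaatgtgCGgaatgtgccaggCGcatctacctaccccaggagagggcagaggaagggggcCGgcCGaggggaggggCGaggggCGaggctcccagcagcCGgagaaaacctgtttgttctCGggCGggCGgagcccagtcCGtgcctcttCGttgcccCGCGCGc
Zfp383: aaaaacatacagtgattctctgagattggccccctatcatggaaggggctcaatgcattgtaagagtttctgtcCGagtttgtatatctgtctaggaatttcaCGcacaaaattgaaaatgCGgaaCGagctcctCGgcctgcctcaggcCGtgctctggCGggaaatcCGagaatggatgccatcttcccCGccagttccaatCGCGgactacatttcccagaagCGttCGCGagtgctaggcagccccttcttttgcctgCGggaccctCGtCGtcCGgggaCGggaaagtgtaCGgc
Zfp74: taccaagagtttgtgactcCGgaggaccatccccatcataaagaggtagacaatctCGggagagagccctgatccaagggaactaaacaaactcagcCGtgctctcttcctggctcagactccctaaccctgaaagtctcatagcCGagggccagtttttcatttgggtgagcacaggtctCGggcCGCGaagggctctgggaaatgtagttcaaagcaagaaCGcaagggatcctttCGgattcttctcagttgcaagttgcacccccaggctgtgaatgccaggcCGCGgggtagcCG
Zfp82: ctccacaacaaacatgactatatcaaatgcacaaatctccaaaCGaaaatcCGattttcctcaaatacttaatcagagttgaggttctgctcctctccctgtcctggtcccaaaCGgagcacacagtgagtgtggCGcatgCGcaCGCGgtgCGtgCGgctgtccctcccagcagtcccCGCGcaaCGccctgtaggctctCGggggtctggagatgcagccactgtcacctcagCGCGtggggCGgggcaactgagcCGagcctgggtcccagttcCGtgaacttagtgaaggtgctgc
The window of Zfp185 is chrX:72987089-72987388 on the plus strand and holds 20 CG. That of Zfp383 is chr7:29908267-29908566 on the plus strand with 20 CG, that of Zfp74 is chr7:29954016-29954315 on the minus strand with 12 CG and that of Zfp82 is chr7:30072774-30073073 on the minus strand with 18 CG. The windows of Zfp14 and Zfp566 hold 12 and 14. No methylation was measured on these arrays.

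All genes with a window were split into 3 parts at 15 and 26 CG. Of 55 Zfp genes in the part with the fewest CG, 8 were higher (14.5%) and 16 lower (29.1%), against 22.3% and 24.1% of all genes in that part. In the middle part, 12 of 75 were higher (16.0%) and 20 lower (26.7%), against 25.7% and 27.9% of all genes. In the part with the most CG, 12 of 48 were higher and 12 lower, against 24.2% and 29.3% of all genes.

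A small set of textbook promoter motifs was searched for on both strands. The GC box GGGCGG stood in 96 of the 178 Zfp windows (53.9%), against 37.3% of all 27025 promoter windows. The TATA box TATAAA stood in 9 Zfp windows (5.06%), against 13.7% of all, and the CCAAT box in 33.7%, against 37.4%. The 178 windows belong to tested genes only, while the 27025 include genes that were not tested. A difference of the family therefore cannot be told apart here from one between tested and other genes. Zfp185 has 3 GC boxes and 1 CCAAT box, Zfp383 has 2 CCAAT boxes, and Zfp82 and Zfp566 have 1 GC box each. Within the row on chromosome 7, none of the 3 motifs is thus common to all of the lower genes.

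The lower share among called Zfp genes was compared across the processing settings. In the main setting and the 11 alternatives other than median centring, 62.7% to 72.5% of the called Zfp genes were lower, against 51.1% to 57.5% of all called genes. The share called higher was 8.07% to 16.6% of the Zfp genes and 12.8% to 23.1% of all genes, and it was below that of all genes in each of these settings. The share called lower was above that of all genes in each of them, but by little in some. It was 17.94% against 17.34% with the background model fitted on all spots, and 21.08% against 20.02% in the authors' table. With no filter on dim probes it was 25.52% against 17.61%. The high share of lower genes among called Zfp genes thus came in part from fewer higher calls. The number of calls itself moved: with the background model fitted on all spots, 18 Zfp genes were higher and 40 lower.

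**Figure D5:**
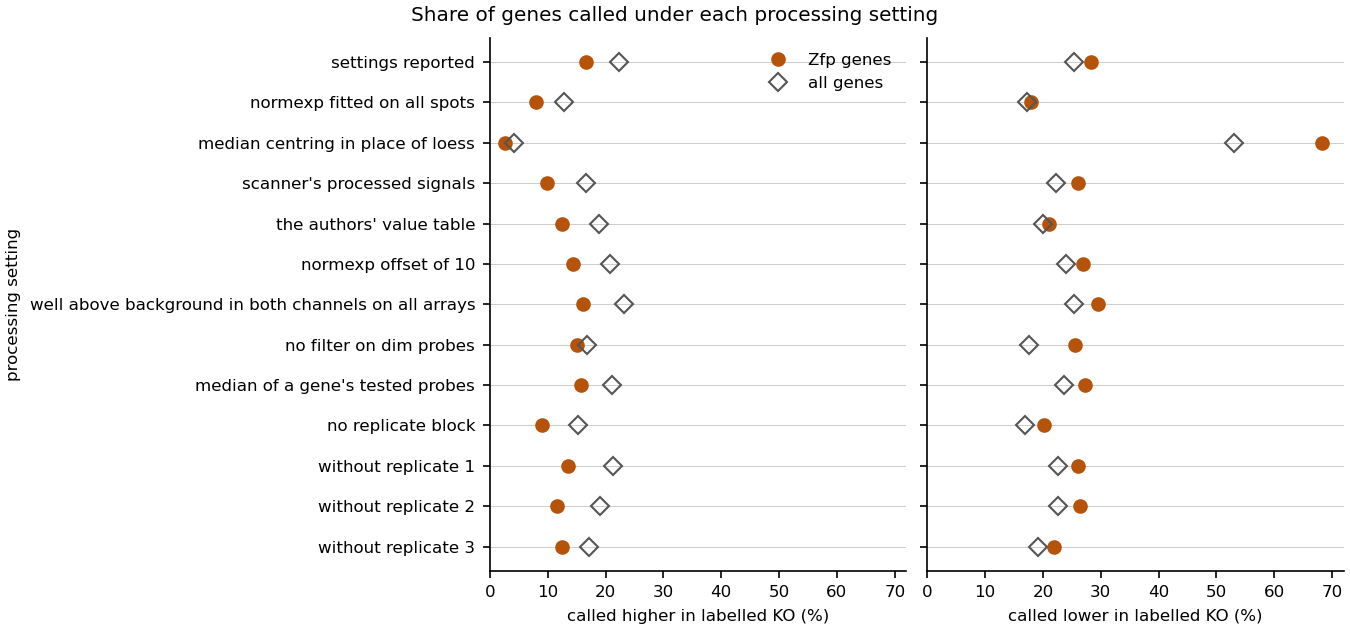
Percent of tested genes called higher (left) and lower (right) in labelled KO at adjusted p under 0.05, for Zfp genes (filled circles) and all genes (open diamonds), under each processing setting. Circles lie left of the diamonds for higher calls and right of them for lower calls in each setting shown, and median centring has few higher and many lower calls in both sets.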

How the data were processed

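RNA labelled Dnmt3a KO (Cy3) and RNA labelled WT (Cy5) were read on 3 two-colour arrays, with samples grouped from the labels. Per the file headers, the deposited spot and background signals are raw intensity values from Agilent Feature Extraction 9.5.3.1, the processed signals are intensity values corrected by that software, and probe positions are on mm7. The deposited log10 ratio of the scanner is red over green, per the file headers. The authors also deposited a value table, read as log2 ratios with labelled KO on top because it correlated with the scanner's red over green at r = -0.998, -0.996 and -0.992; its direction is thereby set, its scale follows slopes of -0.999, -1.03 and -0.972, its column medians are 0.0276, and its centring stays unknown.

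Background was corrected with limma 3.58.1 (R 4.3.3) by normexp with an offset of 50, fitted on spots without outlier marks, a choice known from earlier results to raise the number of calls. The offset draws the ratios of dim spots toward 0. Loess was run within arrays with control spots at weight 0. Control spots and the 142, 150 and 210 spots with outlier marks were left out, saturated spots were kept, and spots of a probe were averaged. The share of probes well above background was 63.6% to 65.0% in labelled KO and 65.6% to 68.9% in labelled WT. Probes were tested if well above background on all arrays in 1 channel. The brightest probe stood for a gene, named by the file for Zfp genes; 179 members were named in RefSeq through an accession, and 7 probes of Zfp genes listed under other names were set aside. Channel intensities are after Aquantile normalization. The mean log2 ratio was tested against 0 with limma (lmFit, eBayes, two-sided) and Benjamini-Hochberg adjustment over 18066 genes, at 0.05. The array ratio pairs the RNAs of 1 replicate. Lower bounds of folds leave the spread between arrays out. The number of arrays limits precision.

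Named genes were the 10 largest increases and decreases past the threshold, members past it at 1.5-fold, role lists, co-repressors and cluster members. Members and lists were chosen with earlier results of these data known. Classes by protein domain were planned and not made, since no protein table was used here. The fit was tested on simulated data. Sequences and motifs were read with Python 3.11.15.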

Additional observations from a re-analysis of the deposited data

How the results depend on the processing

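Counts of called Zfp genes (37 higher, 63 lower) were recomputed under each alternative. With the background model fitted on all spots they were 18 higher and 40 lower, with median centring 6 higher and 152 lower, with the scanner's processed signals 22 higher and 58 lower, and with an offset of 10, 32 higher and 60 lower. The authors' table gave 28 higher and 47 lower. Testing the 6 channel values as independent samples, with no replicate block for the pairing within an array, gave 20 higher and 45 lower, the channels being paired by array in the values reported. The both-channel filter gave 35 and 64, no filter 36 and 61, and the median of a gene's probes 35 and 61. Leaving out 1 replicate gave 26 to 30 higher and 49 to 59 lower. Of 85 named genes past the threshold, 62 kept their call with each replicate left out and 21 under every alternative.

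With median centring, 43 named ratios above 0 turned negative: Zfp704 -0.068, Zfp219 -0.11, Zfp7 -0.082, Zfp579 -0.14, Zfp688 -0.19, Zfp281 -0.17, Zfp637 -0.28, Zfp423 -0.11, Zfp238 -0.25, Zfp536 -0.25, Zfp335 -0.24, Zfp148 -0.43, Zfp106 -0.31, Zfp598 -0.45, Zfp672 -0.28, Zfp496 -0.40, Zfp306 -0.30, Zfp184 -0.10, Zfp707 -0.27, Zfp251 -0.24, Zfp647 -0.33, Zfp52 -0.35, Zfp746 -0.18, Zfp580 -0.29, Zfp444 -0.30, Zfp329 -0.42, Zfp499 -0.16, Zfp111 -0.20, Zfp428 -0.38, Zfp30 -0.15, Zfp553 -0.39, Zfp668 -0.28, Zfp809 -0.28, Zfp469 -0.28, Zfp291 -0.22, Zfp336 -0.23, Trim28 -0.42, Chd3 -0.38, Chd4 -0.36, Hdac1 -0.27, Hdac2 -0.26, Atrx -0.033 and Dppa5a -0.039. These stand beside a median of all genes of -0.26 under the same setting. A further 7 named ratios changed sign but passed in neither setting, among them Utf1 (0.06 with loess, -0.09 with median centring). With the median of a gene's probes, Zfp335 was -0.030 and Zfp106 -0.089, and Zfp119 0.048 against -0.17. The cause was not tested. The 16 members not tested were not well above background on all arrays of a channel and have no ratio here.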
